A study of Solanum lycopersicum with 12 samples.

Results

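Feeding by the leafminer *T. absoluta* changes the transcripts of a tomato leaf within hours, and a set of genes differed between infested and control leaves after 24 h but hardly after 5 h. These late-only genes were chosen from the counts by a rule on CPM (the count of a gene divided by the total of its library and scaled by 1000000), taken as the mean over the 3 libraries of a group plus 0.5. A member had an infested to control ratio of at least 3 at 24 h, every infested 24 h library above every control 24 h library, an infested 24 h mean of at least 5 CPM, and an infested to control ratio between 0.67 and 1.5 at 5 h. The rule found 110 genes of the 34075 in the tables. Of these, 109 passed the filter on low counts (more than 1 CPM in at least 3 libraries) among 18200 genes tested, and *Solyc02g070110* did not. A total of 478 genes met the conditions set at 24 h, and 359 of them exceeded the window at 5 h while 9 fell below it. Since the values at both times chose the members, their levels and test calls are given below as a description. No call is taken as evidence for the pattern.

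The plants were tomato, *Solanum lycopersicum*, of the cultivar Better Bush, grown in a nutrient film system. Infested plants carried 6 larvae of *T. absoluta* on the terminal leaflets of a single leaf, and control plants received a mock deposition. The sample labels name leaf 3 and the methods of the study leaf 4. The larvae were removed before the leaflets were frozen, and the 12 libraries form 4 groups of 3, namely infested 5 h with its control 5 h and infested 24 h with its control 24 h. The labels and methods count 6 infested and 6 control plants, as many as there are libraries, but do not say that each library came from its own plant, and the p-values measure the spread between these libraries. In a whole leaflet fewer cells of a type cannot be told apart from less RNA per cell.

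A chewing or mining larva wounds the leaf and leaves saliva in it. Plant cells perceive both through receptors at the cell surface, many of them receptor-like kinases, and pass the signal on through calcium and mitogen-activated protein kinases (MAPK) to the hormones jasmonic acid and ethylene. Proteinase inhibitors that disturb insect digestion, and phenolamides, in which a hydroxycinnamic acid is bound to an amine such as tyramine or putrescine, are known products of this response in the nightshade family.

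Library totals lay between 19655669 and 28209033 counts. The 10 light harvesting genes used as markers of green leaf, also listed by the study on these samples, were present in every library, where they made up 2.93 to 3.67% of all counts in infested 5 h and 3.53 to 3.94% in control 5 h. At 24 h their share was 0.0765 to 0.191% in infested leaves and 0.414 to 0.641% in control leaves. The 12 genes that the study lists under response to wounding, a list chosen on these samples, summed to between 10571 and 32856 CPM in infested 24 h and between 31.9 and 103 CPM in control 24 h. By the table headers, the mapping of the 5 h libraries had another common input file than that of the 24 h libraries, and this cannot be told apart from the harvest time.

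Summed over the 110 late-only genes, the level was 1000.4, 1004 and 877 CPM in infested 5 h (replicates 1, 2 and 3) and 669, 851 and 928 CPM in control 5 h. At 24 h it was 6152, 2715 and 2379 CPM in infested leaves, against 1002, 1223 and 499.7 CPM in control leaves. The infested 24 h libraries were the highest of all 12, and infested 24 h replicate 1 stood far above the other two. The median ratio at 24 h was 3.898, with a range from 3.01 to 14.6, and 57 genes had a ratio under 4, 39 a ratio from 4 to 6 and 14 a larger one. At 5 h the median ratio was 1.13. Most of the members were of low abundance: 33 had an infested 24 h mean below 10 CPM, 61 a mean from 10 to 50 CPM, 10 a mean from 50 to 100 CPM and 6 a mean above 100 CPM. In 95 of the 110, every infested 24 h library exceeded all 9 other libraries by CPM on library totals, beside 12.4% of all genes tested. The rule already put all 110 above the 3 control 24 h libraries, so this count is a description. Of the genes tested, 4908 met that condition and 2251 of those exceeded all 9 others.

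**Figure D1:**
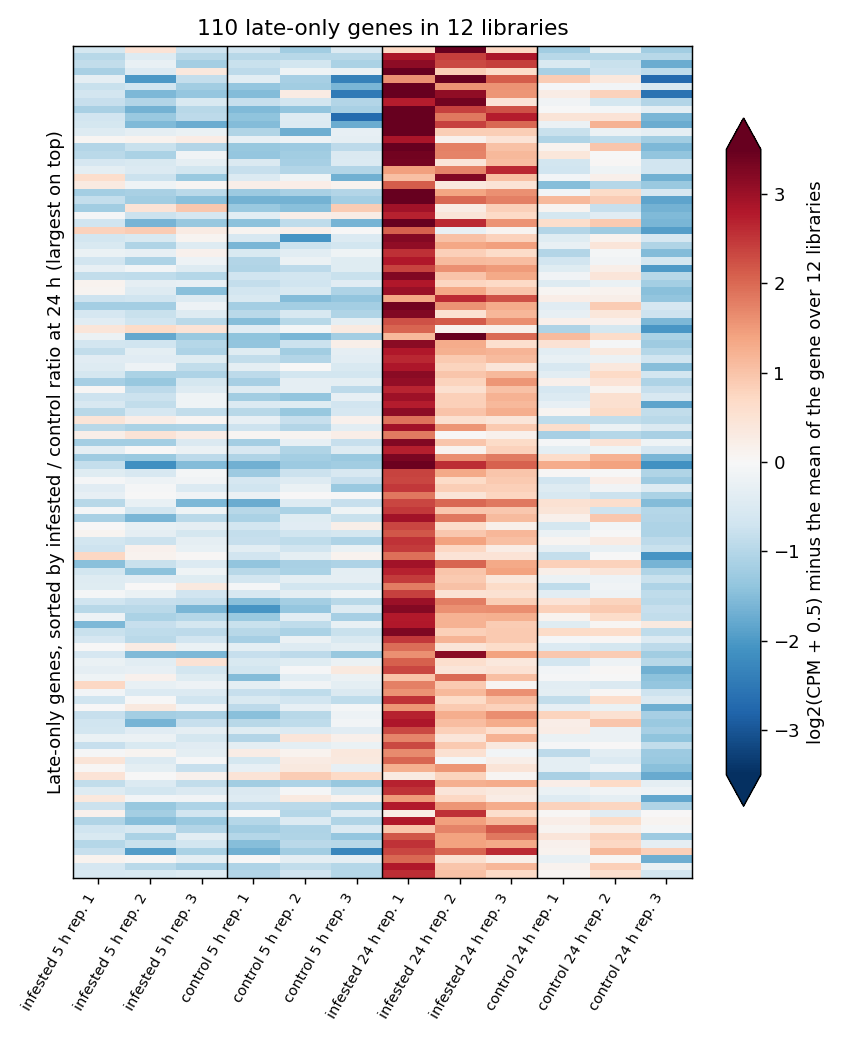
Levels of the 110 late-only genes (one line each, largest ratio at 24 h on top) in the 12 libraries, as log2(CPM + 0.5) minus the mean of the gene, with values beyond the colour scale drawn in its end colours. The 3 infested 24 h columns are the highest in most lines, replicate 1 above all, and the column of control 24 h replicate 3 is the palest or bluest of the 24 h controls.

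With edgeR's quasi-likelihood test on all 18200 genes (TMM normalization, adjusted p below 0.05), 96 of the 109 members tested were called higher in infested leaves at 24 h, beside 11.8% of all genes tested called higher and 12.5% called lower, and the lowest log2FC (log2 fold change, infested minus control) of a member was 1.42. At 5 h, 0 members were called in either direction, beside 12.5% of all genes tested (6.94% higher and 5.59% lower). An unadjusted p below 0.05 was found in 1 member at 5 h, beside 25.3% of all genes tested, DESeq2 called 0 and the likelihood ratio test 2. The rule used both contrasts, and nothing is read from these counts. The median log2FC of the members was 1.96 at 24 h and 0.26 at 5 h, beside 0.02 and -0.03 over all genes tested. Scaling by library totals alone raised the median log2FC of all genes at 24 h by 0.19, to 0.21, and that of the members to 2.13. Without infested 24 h replicate 1, control 24 h replicate 1 or control 24 h replicate 3, the calls at 24 h numbered 48, 56 and 48 instead of 96. The median log2FC of the members in these fits was 1.31, 2.06 and 1.73, so that it was clearly smaller only without infested 24 h replicate 1.

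By its ratios, the late-only pattern also implies that the response at 24 h exceeded the response at 5 h. In the fit *Solyc11g073060* was an exception, with a log2FC of 2.69 at 24 h and 5.06 at 5 h. This gene had 0 counts in control 5 h and 10 in infested 5 h replicate 3. The difference between the responses was called in 5 of the 109 members, all with the larger response at 24 h, beside 0.687% of all genes tested. It had an unadjusted p below 0.05 in 69 members, beside 7.63% of all genes tested. These counts too come from contrasts that the rule used. The 5 genes, named here after their values were seen, were *Solyc01g087780*, *Solyc04g007900*, *Solyc06g072430*, *Solyc07g005090* and *Solyc08g077330*. The count of 5 was 1 without infested 5 h replicate 1, control 5 h replicate 1, control 24 h replicate 1 or control 24 h replicate 3. It was 0 without replicate 2 or 3 of either 5 h group and 2 without control 24 h replicate 2, and it was 11 and 12 without infested 24 h replicate 2 and replicate 3. For all members, the 5 included, the label late-only rests on the size of the ratios.

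The roles below come from the lists of the study, since no identifier of the tables matched the reference table of gene names. They cover 8 of the 110 members. The other 102 were in none of the lists as read and are given by identifier alone, but the phosphorylation list was cut short after 27 identifiers on chromosomes 1 and 2, so later ones were not looked up. The 8 comprise a MAPK, 2 tyramine hydroxycinnamoyl transferases (THT) and 5 genes of the study's list under phosphorylation, in which the study counts many receptor-like kinases. The study drew up the MAPK, ethylene and phosphorylation lists on these samples, so they are no independent evidence of a direction, whereas the THT genes come from its list of pathway genes.

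Among the signalling genes, *MPK3* (*Solyc06g005170*) encodes a MAPK that acts downstream of wounding and of microbial elicitors. At 24 h it was at 147, 49.3 and 39.2 CPM in infested leaves, against 25.4, 36.3 and 15.4 CPM in control leaves. At 5 h it was at 16.2, 16.6 and 17.5 CPM in infested leaves and 11.6, 14.6 and 11.8 CPM in control leaves. The groups did not overlap at either time, the lowest infested 24 h library lay just above the highest control 24 h library, and the ratio of 3.01 is the smallest of all members. Without infested 24 h replicate 1 the ratio was 1.71. The ratios of the rule use library totals. With TMM the fitted log2FC of *MPK3* at 24 h was 1.42 ± 0.41 (SE), a fold change below the limit of 3, so its membership depends on the scaling. The other MAPK genes named by the study, *MPK1* (*Solyc12g019460*), *MPK4* (*Solyc11g072630*) and *MPK5* (*Solyc01g094960*), had ratios at 24 h of 1.999, 2.01 and 1.85 and were not members. With *MPK3* included, 3 of the 4 MAPK genes were called higher at 24 h and 1 at 5 h, which was *MPK1*, beside 11.8% and 6.94% of all genes tested. Of the 5 ethylene signalling genes in the study's list, 0 were members, 4 were called higher at 24 h and 1 at 5 h, beside the same shares, with a median log2FC of 0.72 at 24 h and 0.06 at 5 h.

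In all 5 members from the phosphorylation list, replicate 1 was the highest infested 24 h library. *Solyc02g079570* was the most abundant, at 51.7, 13.6 and 13.8 CPM in infested 24 h and 7.26, 8.37 and 4.88 CPM in control 24 h, after 8.99, 8.01 and 5.80 CPM in infested 5 h and 6.28, 7.38 and 8.40 CPM in control 5 h. *Solyc02g071870* was at 21.5, 4.62 and 5.76 CPM in infested 24 h and 3.74, 3.42 and 1.70 CPM in control 24 h, after 6.86, 3.40 and 4.73 CPM in infested 5 h and 3.06, 6.17 and 6.39 CPM in control 5 h. Replicate 1 was the only infested 24 h library of this gene above all of its 5 h libraries, since replicates 2 and 3 lay within the range of the 5 h libraries. *Solyc01g112220* was at 13.2, 3.66 and 3.10 CPM in infested 24 h and 0.647, 1.73 and 0.305 CPM in control 24 h, after 1.47, 1.38 and 2.09 CPM in infested 5 h and 1.10, 1.29 and 1.57 CPM in control 5 h. *Solyc02g014030* was at 12.5, 4.42 and 2.73 CPM in infested 24 h and 2.08, 0.966 and 0.697 CPM in control 24 h, after 0.367, 0.284 and 0.305 CPM in infested 5 h and 0.529, 0.341 and 0.804 CPM in control 5 h. In both genes the infested 24 h libraries lay above all other libraries, and replicate 1 was about 3 times replicate 2 or more. *Solyc01g067020* was at 15.8, 4.42 and 5.16 CPM in infested 24 h and 2.19, 3.99 and 0.436 CPM in control 24 h, after 0.918, 0.248 and 0.814 CPM in infested 5 h and 0.681, 0.757 and 1.64 CPM in control 5 h. Its infested 24 h replicate 2 and control 24 h replicate 2 lay close together. Of the 27 identifiers read from this list, 23 were called higher at 24 h and 6 at 5 h, beside 11.8% and 6.94% of all genes tested, with a median log2FC of 0.96 at 24 h and 0.18 at 5 h. In 26 of the 27, infested 24 h replicate 1 was the highest infested 24 h library.

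**Figure D2:**
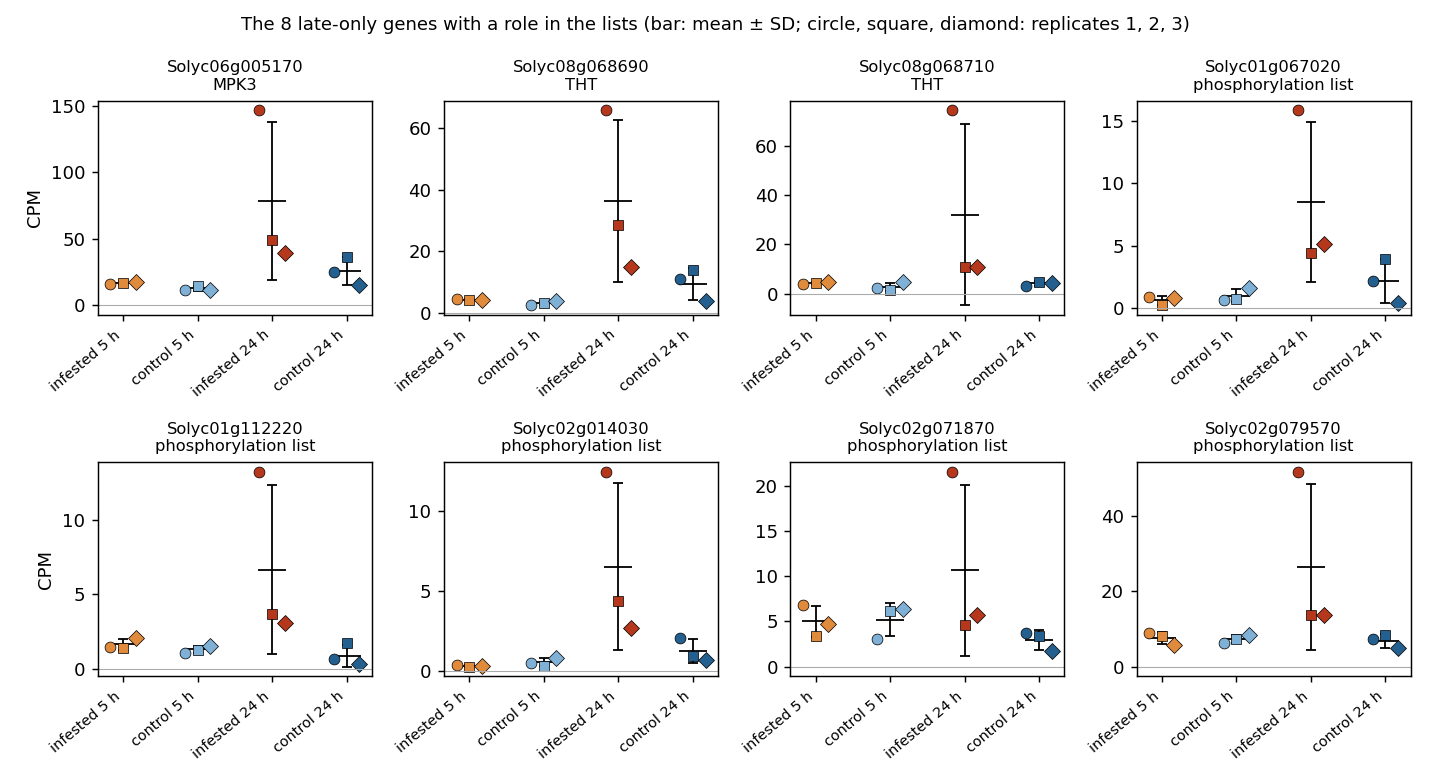
CPM of the 8 late-only genes with a role in the study's lists, at 5 h and then at 24 h, each with the infested group left of its control, and with circles, squares and diamonds for replicates 1, 2 and 3 and bars for the mean ± SD of 3 libraries. In all 8 panels the circle of infested 24 h replicate 1 stands above the rest, at 147 CPM for *MPK3* and 74.3 CPM for *Solyc08g068710*.

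Phenolamide synthesis gave the other pair of annotated members. THT enzymes transfer a hydroxycinnamic acid from its coenzyme A ester to tyramine, and the genes *Solyc08g068690* and *Solyc08g068710* are neighbours on chromosome 8 by their identifiers. *Solyc08g068690* was at 65.7, 28.6 and 14.8 CPM in infested 24 h and 11.1, 13.9 and 3.84 CPM in control 24 h, after 4.66, 4.29 and 4.22 CPM in infested 5 h and 2.53, 3.14 and 3.80 CPM in control 5 h. Its lowest infested 24 h value was within 1 CPM of its highest control 24 h value, and its infested 5 h libraries lay above the 5 h controls by a small margin. *Solyc08g068710* was at 74.3, 10.7 and 10.9 CPM in infested 24 h and 3.13, 4.91 and 4.53 CPM in control 24 h, after 4.04, 4.54 and 4.78 CPM in infested 5 h and 2.495, 1.40 and 4.57 CPM in control 5 h. Replicate 1 held 77.5% of its infested 24 h sum. The ratio at 24 h was 3.65 for *Solyc08g068690* and 6.92 for *Solyc08g068710*, and without infested 24 h replicate 1 it was 2.20 and 2.41. No source used here says how reads that match several genes were counted, so the levels of these neighbouring copies are uncertain.

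The 4 other THT genes of the study's list did not share the late-only form. *Solyc08g068700* lay lower in infested leaves at 5 h, with 27.5, 34.1 and 29.9 CPM in infested 5 h and 66.8, 66.5 and 89.8 CPM in control 5 h, and had 99.1, 44.8 and 34.5 CPM in infested 24 h and 36.5, 26.4 and 22.7 CPM in control 24 h. At 5 h the groups were far apart and the fall was called (log2FC -1.29 ± 0.32 (SE), edgeR quasi-likelihood adjusted p = 0.0204), while at 24 h infested replicate 3 lay below control replicate 1 and the difference was not called (log2FC 0.86 ± 0.32 (SE), edgeR adjusted p = 0.0679). *Solyc08g068730* had a ratio of 8.66 at 24 h and 2.32 at 5 h, outside the window, and was called at 24 h (log2FC 3.18 ± 0.68 (SE), edgeR adjusted p = 0.00627). *Solyc08g068780* had ratios of 1.55 and 1.05 and was called at neither time, and *Solyc08g068720* had no counts in any library. Tyramine itself is made by an aromatic amino acid decarboxylase, and *AADC1A* (*Solyc08g068680*), next to the THT genes by identifier, had ratios of 5.90 at 24 h and 2.26 at 5 h, again outside the window. Neither it nor *AADC2* (*Solyc08g006740*) was a member.

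Members in the wider lists stand beside 109 members among all 18200 genes tested. At that share a list of 11 or 12 genes would seldom hold a member, so nothing is read from a count of 0. Of the 39 phenylpropanoid genes tested, 17 were called higher and 2 lower in infested leaves at 24 h, and 14 higher and 1 lower at 5 h. Over all genes tested, 11.8% were called higher and 12.5% lower at 24 h, and 6.94% higher and 5.59% lower at 5 h. Their median log2FC was 0.65 at 24 h and 0.47 at 5 h, and the 2 THT genes above were the only members. Of the 11 polyamine and monoamine genes tested, 6 were called higher at 24 h and 5 at 5 h, and 0 were members. Of the 12 wounding genes, 11 were called higher at 24 h and 11 at 5 h, and 0 were members.

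Several of the largest ratios at 24 h belonged to genes that were close to absent elsewhere. *Solyc07g054720* had the largest, 14.6, with 1.36, 24.7 and 1.42 CPM in infested 24 h and 0, 0.483 and 0 CPM in control 24 h. Replicate 2 alone held 89.9% of its infested 24 h sum, the largest such share of all members. *Solyc04g007760* had 148, 117 and 174 counts in infested 24 h, or 6.504, 4.66 and 6.51 CPM, and 0 counts in all 6 control libraries. Against a floor of 3 counts per control 24 h library it was at least 49.2-fold higher in infested 24 h, and its 3 infested libraries were the most even of all members, the highest holding 36.8% of their sum. *Solyc08g077330* had 16.7, 9.19 and 10.1 CPM in infested 24 h and 0.863, 0.644 and 0.0872 CPM in control 24 h, after 0.587, 1.13 and 0.356 CPM in infested 5 h and 0.643, 0.757 and 0.402 CPM in control 5 h. All of its infested 24 h libraries stood far above every other library, and the log2FC was 4.28 ± 0.59 at 24 h and 0.25 ± 0.59 at 5 h (SE). *Solyc03g083480* had 15.0, 1.47 and 1.196 CPM in infested 24 h and 0, 0.161 and 0.0872 CPM in control 24 h. *Solyc01g097240* had 9.62, 92.2 and 13.8 CPM in infested 24 h and 5.61, 3.78 and 0 CPM in control 24 h. *Solyc10g076480* had 38.6, 5.05 and 5.08 CPM in infested 24 h and 1.29, 1.248 and 0.784 CPM in control 24 h. In these 3 genes a single infested library held 79.2 to 84.9% of the infested 24 h sum, which was replicate 2 for *Solyc01g097240* and replicate 1 for the other two. *Solyc03g098740*, *Solyc02g070110*, *Solyc03g043700* and *Solyc02g061770* complete the 10 largest ratios, at 9.34, 8.90, 8.21 and 7.12. Only *Solyc03g083480*, *Solyc04g007760* and *Solyc02g070110* were below 1 CPM in all 9 libraries outside infested 24 h.

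The most abundant member was *Solyc05g050120*, at 834, 546 and 505 CPM in infested 24 h and 233, 243 and 86.8 CPM in control 24 h. It was also high at 5 h, with 292, 363 and 264 CPM in infested 5 h and 151, 236 and 274 CPM in control 5 h. Every infested 24 h library exceeded every other library, and its level in control 24 h replicate 3 was the lowest of all 12. *Solyc09g091660* was next, at 395, 84.6 and 99.98 CPM in infested 24 h and 39.7, 45.9 and 20.6 CPM in control 24 h, after 59.1, 36.1 and 40.8 CPM in infested 5 h and 47.3, 70.6 and 73.2 CPM in control 5 h. It had the smallest ratio at 5 h, 0.71. *Solyc05g041910* had 301, 83.2 and 95.2 CPM in infested 24 h and 45.9, 76.2 and 35.8 CPM in control 24 h, with a nearest pair of libraries only 7 CPM apart. *Solyc03g117980*, *Solyc05g050800*, *Solyc09g090980*, *Solyc06g072430*, *Solyc06g035960*, *Solyc12g045030* and *Solyc04g049090* complete the 10 most abundant, with infested 24 h means from 85.0 to 129.97 CPM. Of these, *Solyc06g072430* differed in which library led it. It was at 62.4, 77.4 and 146 CPM in infested 24 h and 14.0, 20.5 and 14.3 CPM in control 24 h, with replicate 3 the highest, and its ratio of 5.72 was 6.70 without infested 24 h replicate 1. *Solyc09g090980* was at 66.1, 195 and 57.1 CPM in infested 24 h and 41.7, 39.8 and 8.89 CPM in control 24 h, with replicate 2 the highest.

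At the limit of the rule, the values changed little across the line. Just inside lay *MPK3*, with a ratio of 3.01, and *Solyc05g041910*, also 3.01. Just outside lay *Solyc08g067610* and *Solyc01g008560*, both with a ratio of 3.00 after rounding. At the edges of the 5 h window, for which the genes were named after their values were seen, *Solyc12g017960* was inside with a ratio of 1.499 and *Solyc03g118810* outside with 1.502. At the lower edge *Solyc09g091660* was inside with 0.714 and *Solyc01g087820* outside with 0.661.

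Infested 24 h replicate 1 carried a large part of the signal. It was the highest infested 24 h library in 94 of the 110 members, replicate 2 in 11 and replicate 3 in 5, whereas over all genes tested replicate 1 was highest in 38.2%, replicate 2 in 48.5% and replicate 3 in 13.3%. Among the 359 genes that met the 24 h conditions and exceeded the window at 5 h, replicate 1 was highest in 72.1%. A single library held over 50% of the infested 24 h sum in 94 members. The median share of the highest library was 62.3% in the members, 49.5% in those 359 genes and 40.1% in all genes tested. Without infested 24 h replicate 1, the median ratio at 24 h of the 110 was 2.44. A ratio of at least 3 was kept by 29 of them and a ratio of at least 2 by 92. The rule chose the members by a ratio that included this library, so the fall follows in part from the selection. Of the 359 genes, 265 kept a ratio of at least 3. Their median ratio was 5.34 with all libraries and 4.13 without that library. They thus started further above the limit of 3 than the members, whose median was 3.898, and the 2 counts are not alike. The rule applied without that library found 49 genes, 28 of them among the 110, and none of the 8 annotated members. Leaving out infested 24 h replicate 2 instead gave 197 genes, 101 of them among the 110. Infested 24 h replicate 3 left out gave 200 genes, with 108 among the 110, and control 24 h replicate 2 left out gave 236, with 109 among the 110.

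**Figure D3:**
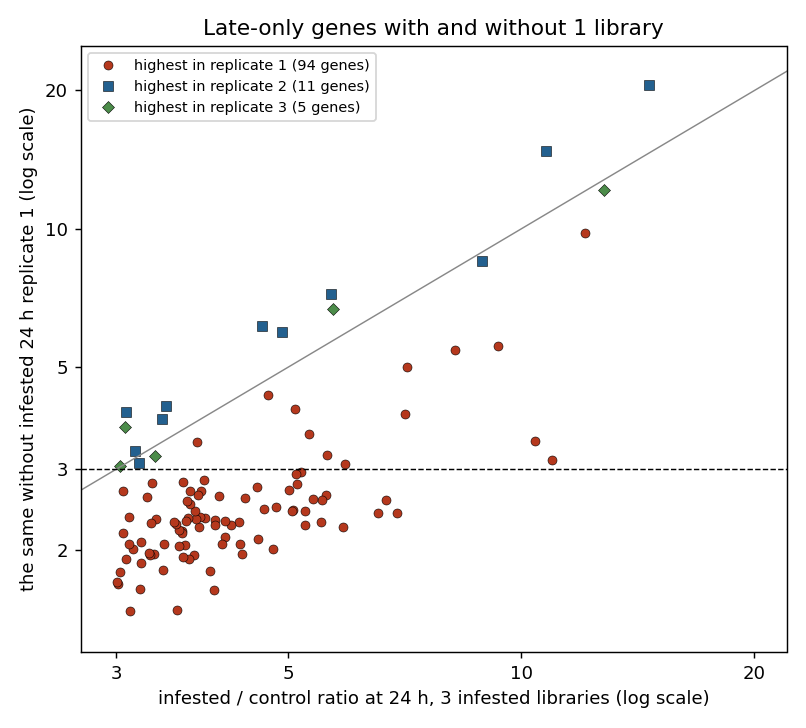
Infested to control ratio at 24 h of each late-only gene with all 3 infested libraries (horizontal, log scale) and without infested 24 h replicate 1 (vertical, log scale), with the line of equality and a dashed line at a ratio of 3. Of the 94 genes highest in replicate 1 (circles), most lie below the dashed line, and 29 of all 110 genes lie above it.

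The controls were uneven as well. Control 24 h replicate 3 was the lowest control 24 h library in 97 of the 110 members, beside 45.5% of all genes tested. It was the lowest in 66.3% of the 359 genes that met the 24 h conditions and exceeded the 5 h window. By library totals, which these shares use, this library also had the lowest TMM factor of its group, 0.978 against 1.02 and 1.04. It had the largest summed light harvesting level of the 24 h libraries, 6415 CPM, against 4863 and 4144 CPM in control 24 h replicates 1 and 2, while infested 24 h replicate 1 had the smallest, 765 CPM, against 1285 and 1906 CPM in infested 24 h replicates 2 and 3. The order of the wounding list was another one, with 32856, 10571 and 30189 CPM in infested 24 h replicates 1, 2 and 3. The part of the light harvesting level in the results for the members was not tested. With infested 24 h replicate 1 and control 24 h replicate 3 both left out, an alternative chosen after seeing the data, the rule found 46 genes, 21 of them among the 110.

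**Figure D4:**
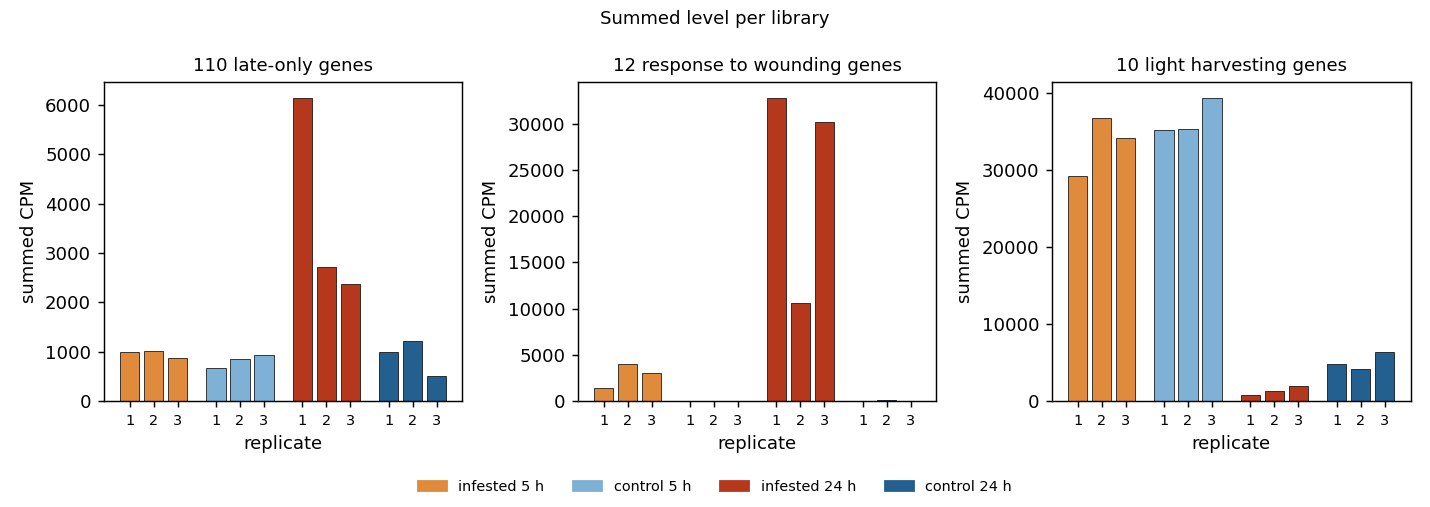
Summed CPM of the 110 late-only genes, the 12 response to wounding genes and the 10 light harvesting genes in each library (bars, replicates 1 to 3 of each group). The late-only sum is largest in infested 24 h replicate 1, at 6152 CPM, where the light harvesting sum is smallest, at 765 CPM, and the wounding sum is about as high in replicate 3 as in replicate 1.

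A gene can meet the rule by a higher infested level or by a lower control level at 24 h than at 5 h. The control libraries give the size of the difference between the harvests. Harvest time cannot be told apart from the mapping input of each time, so why a gene met the rule was not tested. The control 24 h to control 5 h ratio was below 0.67 in 12 members, above 1.5 in 49 and in between in 49. In the comparison of control 24 h with control 5 h, 12 members were called higher at 24 h and 5 lower, beside 13.7% and 14.0% of all genes tested. Both control groups entered the rule, so these counts are a description as well. The count of 12 was 23 without control 24 h replicate 3 or without infested 24 h replicate 1, and it was 2 to 7 without control 24 h replicate 1 or 2, any control 5 h library or infested 5 h replicate 3. The count of 5 was 10 without infested 24 h replicate 1 and 3 without control 24 h replicate 1, control 24 h replicate 3 or control 5 h replicate 3.

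In the 12 members with a lower control level at 24 h, the median ratio of infested 24 h to control 5 h was only 2.003 (range 0.83 to 3.87). It was 8.38 in the 49 members with a higher control level at 24 h. These ratios too use library totals, and the values depend on the scaling. *Solyc01g087780* had the smallest control ratio, 0.26. It was at 20.2, 28.2 and 17.1 CPM in infested 24 h and 7.01, 8.25 and 4.36 CPM in control 24 h, after 22.7, 16.0 and 17.8 CPM in infested 5 h and 22.6, 30.4 and 26.4 CPM in control 5 h. The infested leaves thus had about the same level at both harvests, and the controls of 24 h were the libraries that stood apart. *Solyc04g007900* was at 26.1, 7.36 and 8.04 CPM in infested 24 h and 1.65, 2.54 and 1.96 CPM in control 24 h, after 7.12, 4.96 and 5.90 CPM in infested 5 h and 6.54, 6.70 and 6.17 CPM in control 5 h. *Solyc07g005090* was at 32.2, 11.98 and 14.8 CPM in infested 24 h and 5.68, 4.87 and 3.75 CPM in control 24 h, after 6.97, 8.47 and 7.89 CPM in infested 5 h and 7.33, 8.63 and 8.55 CPM in control 5 h. By CPM on library totals, the infested 24 h libraries of these 2 genes lay above and the control 24 h libraries below every 5 h library. For *Solyc04g007900* the margin was narrow, at 7.36 CPM in infested 24 h replicate 2 and 7.12 CPM in infested 5 h replicate 1. The TMM factor was larger for infested 24 h replicate 2 than for infested 5 h replicate 1, so this order depends on the scaling. *Solyc04g049090*, an abundant gene, was at 159.6, 45.6 and 49.8 CPM in infested 24 h and 19.9, 22.2 and 20.1 CPM in control 24 h, after 52.5, 63.4 and 54.6 CPM in infested 5 h and 47.6, 48.0 and 53.7 CPM in control 5 h. Infested 24 h replicates 2 and 3 stood within or just below the 5 h range, as did the infested 24 h replicates 2 and 3 of *Solyc12g017960*, at 18.3, 3.22 and 4.19 CPM in infested 24 h and 1.65, 1.37 and 0.654 CPM in control 24 h, after 7.27, 7.62 and 4.93 CPM in infested 5 h and 4.23, 4.54 and 3.95 CPM in control 5 h. In all, 6 members had an infested 24 h mean under 2 times the control 5 h mean. This value is the control ratio times the ratio at 24 h. Given the minimum ratio of the rule at 24 h, a value under 2 was possible only among the 12. That the 6 belong to the 12 is therefore no observation, and the lower median of the 12 follows in part from the same product. Of the 5 members in which the responses were called different, *Solyc01g087780*, *Solyc04g007900* and *Solyc07g005090* belonged to the 12.

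**Figure D5:**
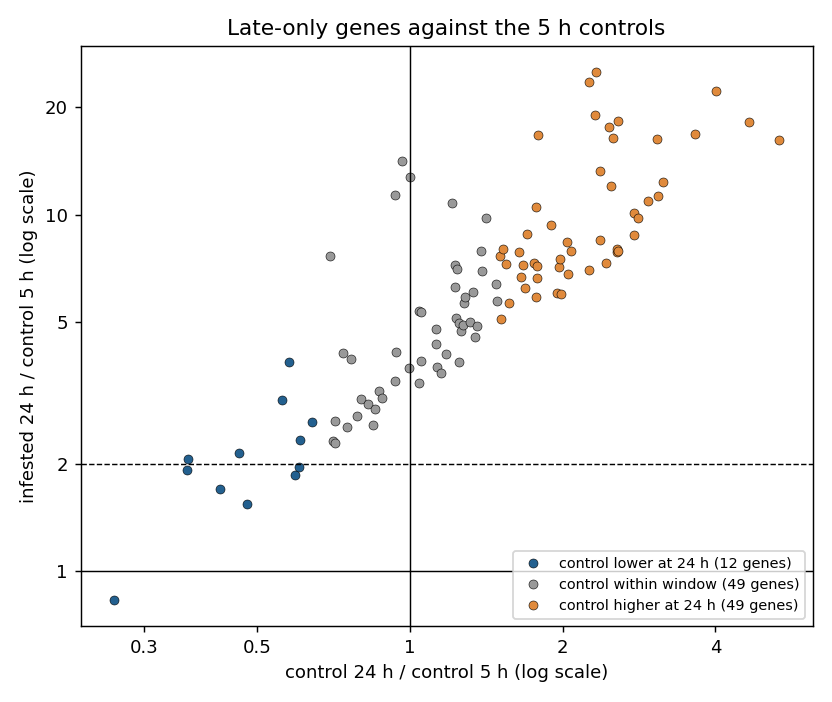
Each late-only gene by its control 24 h to control 5 h ratio (horizontal, log scale) and its infested 24 h to control 5 h ratio (vertical, log scale), both from group means plus 0.5 CPM. Blue, grey and orange points are the 12, 49 and 49 genes whose control level at 24 h was lower, in between and higher, and the 6 blue points under the dashed line at 2 include *Solyc01g087780* at 0.83. The vertical value is the horizontal one times the ratio at 24 h, so the rise to the right follows from the axes.

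At the other end stood genes that were higher at 24 h in the controls and higher still in infested leaves. *Solyc08g062340* had the largest control ratio, 5.35, with 37.0, 30.3 and 45.1 CPM in infested 24 h and 7.55, 15.8 and 12.7 CPM in control 24 h, after 1.81, 2.69 and 1.02 CPM in control 5 h. Its infested 24 h libraries were even, the highest holding 40.1% of their sum. *Solyc04g074000* had a control ratio of 4.66, with 59.8, 32.9 and 23.2 CPM in infested 24 h and 13.4, 14.5 and 0.784 CPM in control 24 h, after 1.248, 1.82 and 1.90 CPM in control 5 h. *Solyc02g092860* had a control ratio of 4.02, with 29.3, 6.77 and 5.61 CPM in infested 24 h and 3.45, 2.86 and 0 CPM in control 24 h, after 0.0756, 0.0757 and 0.292 CPM in control 5 h. In *Solyc04g074000*, control 24 h replicate 3 lay below the 5 h controls while replicates 1 and 2 lay above them. *Solyc02g092860* had 0 counts in control 24 h replicate 3 and only 2, 2 and 8 counts in the 5 h controls, too few to order them.

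By their identifiers the members were spread over all 12 chromosomes, from 2 on chromosome 11 to 12 on chromosome 9. Relative to the genes tested on each, they made up from 0.164% on chromosome 11 to 0.910% on chromosome 9. No run of 3 or more consecutive members occurred, and 16 members formed 8 pairs with identifiers at most 30 apart. Apart from the THT pair these were *Solyc01g087780* and *Solyc01g087800*, *Solyc02g093230* and *Solyc02g093250*, *Solyc04g074000* and *Solyc04g074030*, *Solyc06g072430* and *Solyc06g072460*, *Solyc07g005090* and *Solyc07g005100*, *Solyc09g090980* and *Solyc09g090990*, and *Solyc10g076480* and *Solyc10g076510*.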

How the data were processed

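RNA-seq counts of tomato leaflets, infested by *T. absoluta* or mock-treated for 5 h and 24 h, were analysed in 12 libraries. Per the labels, the authors trimmed reads with Trimmomatic, mapped them with BWA (BWA-MEM in the table headers) and counted them per gene with featureCounts. These counts are what was deposited, whole numbers without normalization, although the methods of the study speak of FPKM. The study names the annotation ITAG2.4, whereas the deposited identifiers carry version suffixes from 1 to 5, which were removed. The sources used here do not give the strand setting or the treatment of multiply mapped reads.

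CPM were computed from library totals. The totals set the floor of 3 counts at 0.106 to 0.153 CPM per library, which covers counting error only. The test took genes above 1 CPM in 3 or more libraries and used edgeR 4.0.16 (limma 3.58.1, R 4.3.3), with TMM normalization, 1 mean per group over all 12 libraries, quasi-likelihood F tests and Benjamini-Hochberg adjustment over 18200 genes. A call is an adjusted p below 0.05. Fitted log2FC use a prior count of 0.125, and an SE is the absolute log2FC over the root of F. The main fit was also run on simulated counts with known changes. No library stood apart in that simulation, so it does not cover the uneven replicates of these data.

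The members and lists were chosen with earlier results of these data known. Named are the 10 members with the largest ratio at 24 h, the 10 most abundant, all members in the lists of the study as read (the phosphorylation list only to its first 27 identifiers), the 2 genes on each side of the ratio limit, the 3 members most carried by 1 library, the 3 largest and 3 smallest control ratios, and runs of 3 or more consecutive identifiers. Other genes named, such as neighbours by identifier and list genes outside the members, were chosen after their values were seen. The light harvesting, MAPK, ethylene, wounding, phosphorylation, polyamine and phenylpropanoid lists hold genes the study names. The reference table matched 0 of 34075 identifiers, so product families were not analysed here, nor were sequences. The alternatives were other limits of the rule, DESeq2 1.42.0 (size factors and Wald test), library totals, other filters, the likelihood ratio test, a log2FC limit of 1.5, a prior count of 2, the replicate number as a block, the libraries of 1 comparison alone, and each library left out.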

Additional observations from a re-analysis of the deposited data

Results flagged for a closer look

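In 6 of the genes named above the difference between the responses of both harvests was called. The difference (log2FC at 24 h minus log2FC at 5 h) was 2.04 in *Solyc01g087780*, 2.68 in *Solyc04g007900*, 1.93 in *Solyc06g072430*, 1.93 in *Solyc07g005090* and 4.03 in *Solyc08g077330*. These 5 are members, chosen by the same contrasts, so the values are a description. The difference was also called in *Solyc08g068700*, the THT gene that lies between both THT members by identifier and is no member itself, at 2.15 ± 0.45 (SE; edgeR quasi-likelihood adjusted p = 0.0364). Its sign was the same in all 19 alternatives, and the adjusted p was below 0.05 in 9 of them, with a range from 0.000187 to 0.108. The replicate block ended the call (2.10 ± 0.45 (SE), edgeR adjusted p = 0.0548).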

How the results depend on the processing

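The rule found 72 members with TMM-scaled CPM, all of them among the 110. It found 405 and 53 with ratio limits of 2 and 4 at 24 h. With a narrower and a wider 5 h window (from 0.8 and from 0.5) it found 59 and 177. It found 202 with a minimum of 1 CPM and 49 to 236 with 1 library left out. The 49 came without infested 24 h replicate 1, and fewer libraries make overlap rarer. Without both infested 24 h replicate 1 and control 24 h replicate 3 it found 46. Of the 110 members, 30 were called at 24 h from the libraries of that time alone and 48 to 97 with 1 library left out. At 5 h, 2 were called by the likelihood ratio test, 5 from the libraries of that time alone, and 0 with any library left out. A different response was called in 25 by DESeq2's Wald test, in 19 by the likelihood ratio test, in 2 with the replicate block and in 0 to 12 with 1 library left out. Between the control harvests, calls of a higher level at 24 h numbered 20 by DESeq2, 21 by the likelihood ratio test, 7 above a log2FC of 1.5 and 2 to 23 with 1 library left out, and calls of a lower level 9 from the controls alone, 3 above a log2FC of 1.5 and 3 to 10 with 1 library left out. Same-numbered infested and control libraries correlated in their deviations at -0.13, -0.05 and -0.02 at 5 h and at 0.06, 0.05 and 0.26 at 24 h, so the numbers were not taken as pairs; the replicate block left 86 members called at 24 h. A difference between responses could not be fitted from the libraries of 1 time. Of the 41 log2FC at 24 h of named genes, 0 changed sign under any alternative, and leaving out infested 24 h replicate 1 ended the call in 12, control 24 h replicate 3 in 13 and control 24 h replicate 1 in 11, and the call was lost in at most 4 under any other setting. The floor of 3 counts, at most 0.153 CPM, lies far below the minimum of 5 CPM. The cause of these changes was not tested.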
